A study of Mus musculus with 2 samples.

Results

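Mir320, Mir484, Mir877, Mir1224, Mir702 and Mir1981 are mouse microRNA genes whose hairpins are thought to be made without Drosha, the nuclear enzyme that cuts most microRNA hairpins out of longer transcripts. They were chosen by symbol from that background knowledge, with earlier results of these data known, and are 6 of the 2202 microRNA genes counted. Mir320 and Mir484 form the class of transcription-start hairpins (2 genes), and Mir877, Mir1224, Mir702 and Mir1981 the class of spliced-intron hairpins, or mirtrons (4 genes). Short RNAs of the left cerebral cortex of male B6CASTF1/J mice, 14 days old, were sequenced in 2 libraries. This strain is a cross of C57BL/6 and CAST/Ei parents. Both libraries belong to the same group, for which no treatment is given, are labelled biological replicates 1 and 2, and carry the same donor label with separate tissue records. The tissue descriptions mention "3x Males" without saying whether animals were pooled, so the spread between libraries may be technical, and no condition could be compared.

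In the usual pathway Drosha and its partner Dgcr8 release a hairpin from a primary transcript, and Dicer then cuts off its loop. A mirtron is a very short intron that the spliceosome releases, and that folds into a Dicer substrate once its lariat is opened. A transcription-start hairpin is the capped 5′ end of a short RNA polymerase II transcript, which goes to Dicer directly. In both routes the ends of the hairpin are set by another machine, the spliceosome or the polymerase. In whole tissue a smaller number of expressing cells and less RNA per cell cannot be told apart.

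Replicate 1 held 4111167 counts in microRNA genes and replicate 2 held 3189903, and levels are CPM, counts scaled to a common total of such counts. A count of 0 leaves room for 3 counts, which came to 0.730 and 0.941 CPM. The fixed tissue markers ranged from 16177 ± 5583 CPM for Mir132 (SD, n = 2) and 14152 ± 150 CPM for Mir128-1, both neuronal, down to 49.9 ± 2.72 CPM for liver Mir122 and 3.51 ± 3.64 CPM for muscle Mir208b. The lowest of the 4 neuronal markers, Mir138-1, was at 4807 ± 235 CPM. Among markers of other cells, endothelial Mir126a was at 11812 ± 1929 CPM and the oligodendrocyte markers Mir219a-2 and Mir338 at 1531 ± 128 and 1157 ± 107 CPM. The leukocyte markers Mir142 and Mir223 were at 90.1 ± 34.3 and 17.8 ± 1.83 CPM. Erythroid Mir451a and Mir144 were at 53.75 ± 23.7 and 15.1 ± 0.764 CPM, and Mir206, the other muscle marker, was at 22.25 ± 2.23 CPM.

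The RefSeq microRNA table (GRCm38.p6, the same assembly as mm10) matched 5 of the 6 genes, with 9 mature sequences. They are printed to show with which bases the arms begin and which seeds they carry. Each runs 5′ to 3′, and capitals mark the seed, bases 2 to 8, which pairs with target messages.
miR-484: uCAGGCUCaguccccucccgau
miR-877-5p: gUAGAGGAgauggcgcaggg
miR-877-3p: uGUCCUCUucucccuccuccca
miR-1224-5p: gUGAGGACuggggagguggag
miR-1224-3p: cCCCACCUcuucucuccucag
miR-702-5p: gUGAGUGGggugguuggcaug
miR-702-3p: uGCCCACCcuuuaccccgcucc
miR-1981-5p: gUAAAGGCugggcuuagacguggc
miR-1981-3p: cAUCUAACccuggccuuugac
No seed was shared between these 9 sequences. Of the other sequences of the table only miR-3102-5p shared a seed with any of them, that of miR-702-5p. All 4 mirtron 5p arms begin with GU, the bases that open nearly every intron, as do 37 of 697 5p sequences in the table (5.31%). So none of the 4 begins with U, the first base of 687 of 1679 mature names (40.9%). The 4 were grouped as spliced-intron hairpins beforehand, so a start at GU follows from the class and is no separate result. The 3p arms of the 4 hold from 66.7% C and U in miR-1981-3p to 90.9% in miR-877-3p, beside a median of 59.1% over 709 3p sequences. Of those sequences 65.7% lie below miR-1981-3p, so its share is not unusual. A run of pyrimidines before the 3′ splice site is a general feature of introns.

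The hairpins show how closely the microRNA follows the intron. In the lines below, again 5′ to 3′, capitals mark the mature arms.
Mir877: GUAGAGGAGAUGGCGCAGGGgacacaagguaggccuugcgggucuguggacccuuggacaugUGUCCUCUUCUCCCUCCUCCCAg
Mir1224: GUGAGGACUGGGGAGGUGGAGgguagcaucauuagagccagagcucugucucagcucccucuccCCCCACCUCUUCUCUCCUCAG
Mir702: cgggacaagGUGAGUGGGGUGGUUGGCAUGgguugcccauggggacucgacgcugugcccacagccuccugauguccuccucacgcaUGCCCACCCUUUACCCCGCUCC
Mir1981: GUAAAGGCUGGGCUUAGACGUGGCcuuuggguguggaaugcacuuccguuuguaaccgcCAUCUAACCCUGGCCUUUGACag
Mir484: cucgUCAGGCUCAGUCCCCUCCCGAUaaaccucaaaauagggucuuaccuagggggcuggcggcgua
The Mir877, Mir1224 and Mir1981 hairpins begin with GU and end with AG, as do 30 of the 1005 hairpins of the table (2.99%). Both are the ends of the intron that each hairpin fills. The Mir702 hairpin as annotated begins 9 bases before its intron and stops 2 bases short of its end, so it shows neither. Mir484, of the other class, begins with CU.

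Each mirtron lies on the coding strand of a protein-coding host gene. Mir877 (ENSMUSG00000077931.1; mm10 chromosome 17, 35960730 to 35960814, minus strand) fills the whole of intron 12 of 22 of Abcf1, which encodes a factor in translation initiation. Mir1224 (ENSMUSG00000080669.1; chromosome 16, 20604452 to 20604536, plus strand) fills the last of 22 introns of Vwa5b2. Mir1981 (ENSMUSG00000088559.1; chromosome 1, 184822407 to 184822488, minus strand) fills intron 5 of 7 of Marc2, which encodes a mitochondrial molybdenum enzyme. In these 3 genes hairpin and intron ends coincide to the base.

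Mir702 (ENSMUSG00000076240.1; chromosome 5, 136991433 to 136991541, plus strand) covers intron 13 of 18 of Plod3, which encodes an enzyme that modifies collagen lysines, and the last 9 bases of the exon before it. Its 5p arm, and not its hairpin, begins at the intron's first base. The same held for all 4 mirtrons: every 5p arm began at the first base of its intron, as did 24 of 1738 mature entries in the table (1.38%), these 4 included. Such a start is part of what makes a mirtron, so it describes the class and does not test it. The 3p arms ended 0 bases before the last base of the intron in Mir1224, 1 base before it in Mir877 and 2 bases before it in Mir702 and Mir1981. The introns are 82, 85, 85 and 102 bases long, and 5.00% of the 284419 annotated introns are no longer than 102 bases (median 1484 bases). The map of hairpins on their introns shows these ends.

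**Figure D1:**
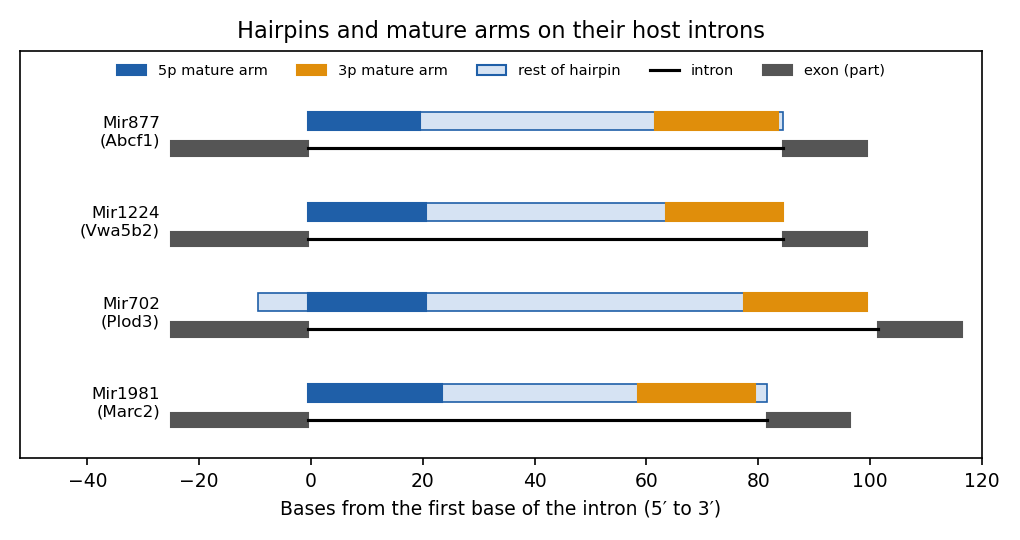
Annotated hairpins and mature arms of the 4 spliced-intron genes (host gene in parentheses), drawn to scale along the horizontal axis, which gives bases from the first base of the intron; lines are introns and grey boxes parts of the exons beside them. All 4 5p arms start at the first base of the intron, and the Mir702 hairpin alone extends into the exon, by 9 bases.

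The class of Mir320 and Mir484 could not be checked against annotated transcripts in the same way. Mir320 (ENSMUSG00000065528.1; chromosome 14, 70443510 to 70443591, plus strand) overlaps no annotated intron of its own strand. The nearest annotated transcript start is that of Polr3d, which encodes a subunit of RNA polymerase III, 63 bases upstream on the opposite strand. On its own strand the nearest start, of Phyhip, lies 13966 bases downstream. Mir484 (ENSMUSG00000070074.1; chromosome 16, 14159626 to 14159692, plus strand) overlaps no annotated intron of its own strand either. It has a start of Marf1, which encodes a regulator of mRNA stability, 359 bases upstream on the opposite strand, and one of Nde1, which encodes a protein of dividing neural progenitors, 3649 bases downstream on its own strand. No start on the gene's own strand therefore marks either hairpin in GENCODE M21, and the class rests on background knowledge.

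The hairpins of the 5 matched genes hold from 53.7% G and C in Mir1981 to 65.1% in Mir702, all above the median of 51.7% over 1005 hairpins. Mir1981 exceeds 59.2% of those hairpins and Mir702 exceeds 92.5%. Their folding energies per base, computed with RNAfold, ran from -0.504 kcal/mol in Mir1224 to -0.367 kcal/mol in Mir484, on both sides of the median of -0.406. No 18-base stretch of these 5 hairpins occurs in the GENCODE M21 transcript sequence of any of the other 2201 microRNA genes. Reads that match several positions were given to no gene; matches elsewhere in the genome were not analysed here.

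All 6 genes reached 10 counts in both libraries, the minimum for a gene to be called detected, which 18.4% of all genes reached. Their summed share of the counts was 0.637% in replicate 1, with an exact 95% interval from 0.630 to 0.645%. It was 0.546% in replicate 2, with an interval from 0.538 to 0.554%, so that the mean was 0.592% ± 0.0648 (SD, n = 2). The 6 ranked between 72 and 150 of 2202 by mean level. Each lay above the median of the 406 detected genes, 128.9 CPM, and the lowest of them, Mir702, above 63.1% of detected genes. These microRNAs were thus in the upper part of the counted profile, and none was among its leading genes. Reads that match several positions, 39.1% and 41.4% of all reads, are in no gene's count. The ranks are therefore places among counts of reads that match 1 position, and genes with several copies can stand too low in them. No read was counted on the strand opposite to any of them. A count covers the whole hairpin, so the arms printed above are not told apart. Each counted read is a short RNA taken as a whole, so counts were compared between genes without a length term, and per hairpin base the order of the 6 genes was the same.

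**Figure D2:**
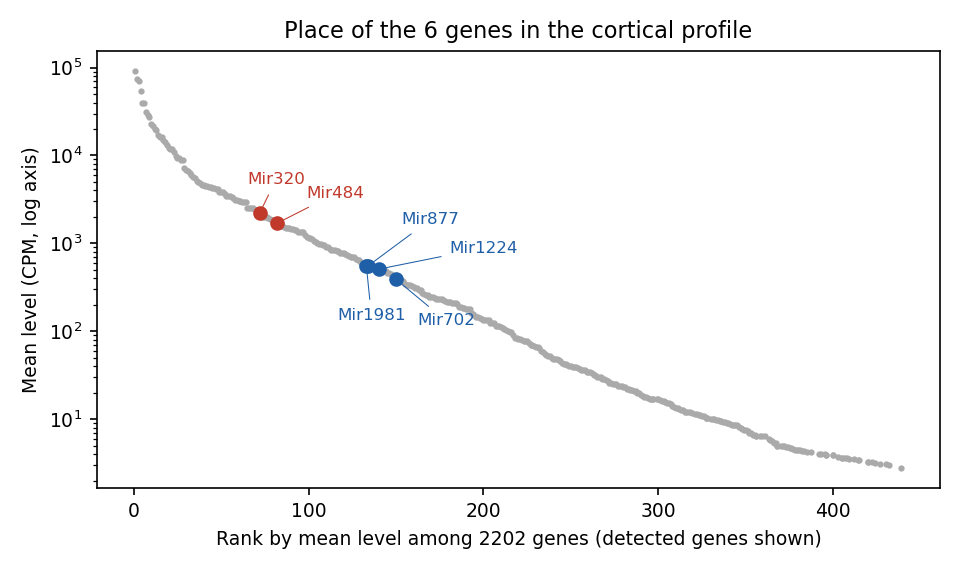
Mean level in CPM on a log axis against rank for the 406 detected genes (grey points), with the 2 transcription-start hairpins in red and the 4 spliced-intron hairpins in blue. The red points sit at ranks 72 and 82 and the blue points at ranks 133 to 150.

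The 2 transcription-start hairpins stood highest. Mir320 had 9463 counts in replicate 1 and 6752 in replicate 2, which is 2302 and 2117 CPM. Mir484 had 7711 and 4838 counts, which is 1876 and 1517 CPM. Both were higher in replicate 1, and the lower Mir320 library was still above the higher Mir484 library, so their levels did not overlap. The means were 2209 ± 131 CPM and 1696 ± 254 CPM (SD, n = 2), a difference of 513 CPM. Mir320 was 1.23 times Mir484 in replicate 1 and 1.40 times in replicate 2.

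The 4 mirtrons lay within 1.55-fold of each other in replicate 1 and 1.51-fold in replicate 2, far below the other class. Mir877 had 2591 and 1525 counts, which is 630 CPM in replicate 1 and 478 CPM in replicate 2. Mir1224 had 2485 and 1315 counts, which is 605 and 412 CPM. Both were higher in replicate 1. Mir1981 had 2281 and 1792 counts, and its levels of 555 and 562 CPM were nearly the same in the libraries. Mir702 had 1673 and 1185 counts, which is 407 and 371 CPM, and was the lowest of the 6 in each library.

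By mean level the mirtrons followed the order Mir1981 (558 ± 4.91 CPM), Mir877 (554 ± 108 CPM), Mir1224 (508 ± 136 CPM) and Mir702 (389 ± 25.1 CPM; SD, n = 2 each). The order of the first 3 does not hold beyond the spread. Mir1981 was 0.880 times Mir877 in replicate 1 and 1.18 times in replicate 2, so the pair changed places. Mir877 was above Mir1224 in each library, by 1.04 and 1.16 times, but their ranges overlapped. Mir1224 was 1.49 and 1.11 times Mir702, with ranges that did not overlap, though the mean difference of 119 CPM was smaller than the SD of Mir1224. Between the classes the gap was wider: Mir484, the lower of the transcription-start pair, was 3.38 and 2.70 times Mir1981.

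**Figure D3:**
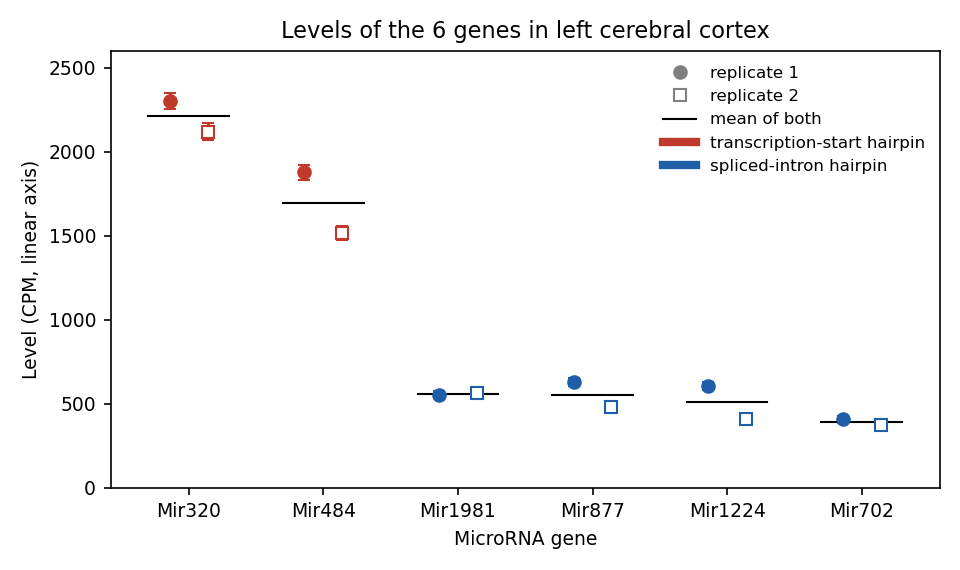
Level of each gene in CPM on a linear axis from 0, with replicate 1 as filled circles, replicate 2 as open squares, the mean as a line, and exact 95% counting intervals as bars. Mir320 and Mir484 (red) lie between 1517 and 2302 CPM, and the 4 spliced-intron genes (blue) between 371 and 630 CPM.

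Summed by class, the 2 transcription-start hairpins held 0.418% and 0.363% of the counts and the 4 mirtrons 0.220% and 0.182%. The ratio of the classes was 1.90 in replicate 1 and 1.99 in replicate 2, or 1.95 ± 0.0640 (SD, n = 2). Both sums were lower in replicate 2 by a like amount, with log2 ratios of -0.20 and -0.27. The ratio sets a sum over 2 genes against a sum over 4, so leaving out either of the 2 must lower it. It was 0.843 with Mir320 left out and 1.10 with Mir484 left out, and the mirtrons were not left out in turn.

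In CPM, 5 of the 6 genes were lower in replicate 2 and Mir1981 was level. A two-sided exact binomial test asked for each gene whether its counts divide between the libraries as the totals do, with p-values adjusted by Benjamini-Hochberg over the 406 detected genes. This compares 2 libraries and no conditions, and allows only for the sampling of reads. Of the 6 genes 5 were lower in replicate 2 past an adjusted p of 0.05 and 0 were higher. Among all detected genes 58.1% passed in either direction, 34.7% lower and 23.4% higher in replicate 2. With so many genes passing, such calls say little about the 6.

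Mir1224 differed most, at a log2 CPM ratio of -0.55 (adjusted p = 2.12e-29, exact binomial test). It was followed by Mir877 at -0.40 (adjusted p = 2.23e-17, exact binomial test) and Mir484 at -0.31 (adjusted p = 9.93e-31, exact binomial test). These were the larger differences, and they also passed with TMM library sizes and with DESeq2 size factors. Mir702 stood at -0.13 (adjusted p = 0.0298, exact binomial test) and Mir320 at -0.12 (adjusted p = 3.66e-07, exact binomial test). TMM library sizes add 0.08 to each log2 ratio, and with them neither passed: Mir702 was at -0.05 and Mir320 at -0.04 (adjusted p = 0.458 and 0.117, exact binomial test). Mir1981 stood at 0.02 (adjusted p = 0.769, exact binomial test). It was at 0.10 with TMM library sizes (adjusted p = 0.0596, exact binomial test), further from 0 than Mir702 and Mir320 on that scale. With TMM the count of the 6 that passed was 3, and the split over all detected genes was 111 higher and 110 lower.

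In size these differences were not unusual for the 2 libraries. The median absolute log2 ratio was 0.22 over the 6 genes and 0.30 over all detected genes. The difference of Mir1224, the largest of the 6, exceeded that of 71.2% of detected genes, and the difference of Mir1981 exceeded that of 1.48%. The hairpins' base composition was weakly related to the direction over the 346 detected genes with a hairpin in the RefSeq table. The median log2 ratio was -0.13 above the median GC content and 0.06 at or below it. Across genes of the same 2 libraries, Spearman's rho of GC content and log2 ratio was -0.158 and Pearson's r was -0.093. The 5 matched genes all lie above the median GC content, among them Mir1981 with its log2 ratio of 0.02. The part of base composition in their difference was not tested.

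**Figure D4:**
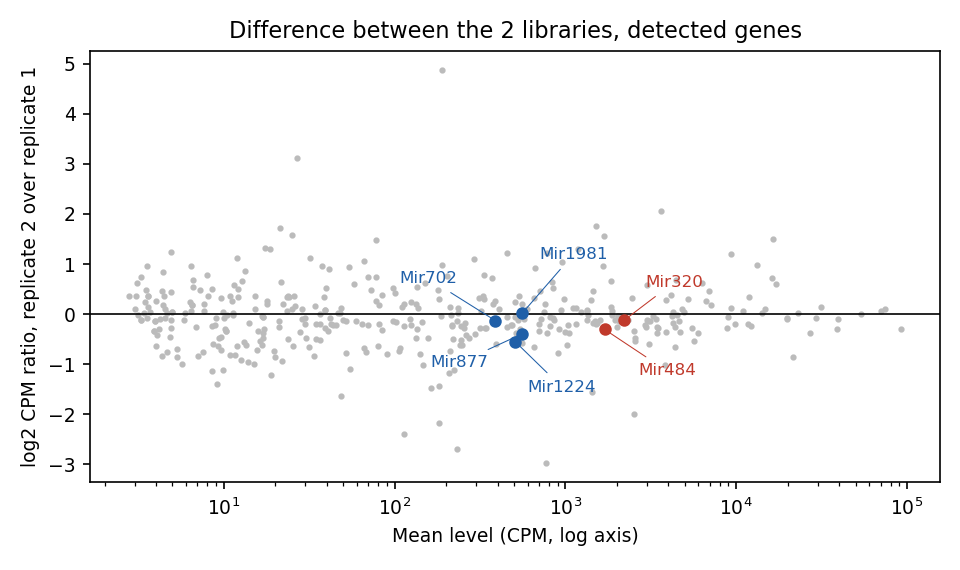
log2 CPM ratio of replicate 2 over replicate 1 against mean level in CPM (log axis) for the 406 detected genes (grey) and the 6 genes (red and blue as the 2 classes). The 6 points run from -0.55 for Mir1224 to 0.02 for Mir1981, inside the spread of genes of like level.

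The known mirtrons can be set among all genes with the same structure. Both hairpin ends lay within 5 bases of the ends of 1 annotated intron in 23 of the 2202 genes, among them Mir877, Mir1224 and Mir1981. Mir702 came in when 10 bases were allowed, with 29 genes in all. Of the 23 genes 10 were detected (43.5%, beside 18.4% of all genes) and 7 reached at least 100 CPM, beside 214 of all 2202 genes. Mir877, Mir1224 and Mir1981 are in both counts, so these do not stand apart from the genes chosen. The median log2(CPM + 1) of the 23 genes was 2.03, beside 0.00 over all genes. Of all 2202 genes 1421 had 0 counts in both libraries, beside 4 of the 23. The part of the annotation's makeup in these comparisons was not tested.

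Mir1981, Mir877 and Mir1224 took ranks 1, 2 and 4 among the 23 and held 64.2% of the list's counts. Rank 3 was Mir3102, in Arhgef17, with 2372 and 1418 counts, or 511 ± 93.7 CPM (SD, n = 2). Below them the level fell to 142 ± 54.4 CPM for Mir7080 in Cpne7, 114 ± 109 CPM for Mir3547 in Baiap3 and 102 ± 8.31 CPM for Mir6944 in Dbn1, and 4 genes had 0 counts in both libraries. The list thus spanned from 558 CPM to nothing counted. Mir1982 in Oaz1, also described as a mirtron, was low in it, at rank 13 with 3.08 ± 0.807 CPM. A count of 0 allows the levels given above only where reads match 1 position. Of the 10 detected genes 6 were lower and 0 higher in replicate 2 past the exact binomial test. Among all detected genes the shares were the 34.7% and 23.4% given above. Mir877 and Mir1224 are among the 6, so this count does not stand apart from the calls already given for them.

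**Figure D5:**
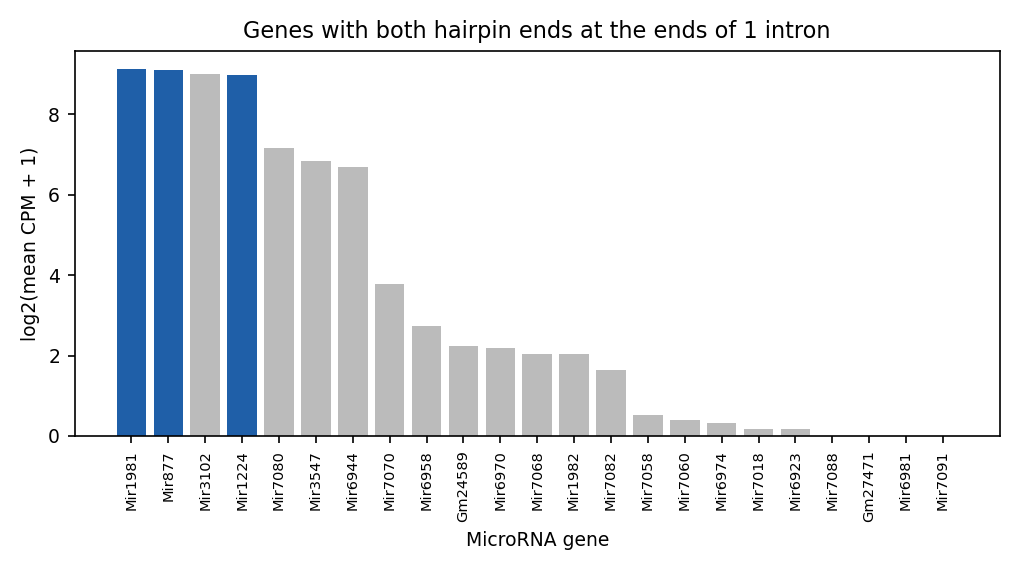
log2(mean CPM + 1) of the 23 genes whose hairpin ends both lie within 5 bases of the ends of 1 intron, in falling order, with Mir1981, Mir877 and Mir1224 in blue. These 3 and Mir3102 are at 508 CPM or more, and the next gene, Mir7080, is at 142 CPM.

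Mir3102 is also the gene that shares a seed with a member, and the arms are printed here to show how far from the 5′ end they are identical.
miR-702-5p: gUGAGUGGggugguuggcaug
miR-3102-5p: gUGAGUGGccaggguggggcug
The 2 sequences are identical over the first 8 bases, which hold the whole seed in capitals, and differ at the next base. Likeness beyond that base was not measured. Both begin at the first base of their introns. Mir3102 lies on chromosome 7, and its counts were 1.42 and 1.20 times those of Mir702 in replicates 1 and 2, although its hairpin gives further arms that the counts do not separate.

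A list fixed in the same way for transcription starts held neither Mir320 nor Mir484. The 5′ end of 52 genes lay within 25 bases of the annotated start of another gene's transcript on the same strand. Of these 15 were detected (28.8%, beside 18.4% of all genes). Mir760 led them at 4377 ± 1367 CPM, and Mir125b-1 followed at 1498 ± 104 CPM (SD, n = 2). On the opposite strand there were 13 such genes, of which 0 were detected, too short a list to set against the share of all genes. Mir3074-1 was the highest of them at 45 and 6 counts.

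The genes nearest in level over both libraries, by Euclidean distance of log2(CPM + 1) in 2 libraries, show what the levels correspond to. Mir320 lay beside Mir93, of the Mir106b-25 cluster in Mcm7 (2302 ± 115 CPM), and Mir322 (2313 ± 134 CPM). Mir484 lay beside Mir540 (1584 ± 91.4 CPM) and Mir219a-2, an oligodendrocyte microRNA (1531 ± 128 CPM). Among the mirtrons, Mir877 and Mir1224 shared the neighbour Mir212, which is produced together with Mir132 (554 ± 156 CPM). The other neighbour of Mir877 was Mir326 in Arrb1 (539 ± 78.5 CPM), and that of Mir1224 was Mir3102. Mir1981 lay beside Mir672 (575 ± 30.1 CPM) and Mir543 (560 ± 55.9 CPM), and Mir702 beside Mir1843b (380 ± 30.2 CPM) and Mir488 (410 ± 20.6 CPM).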

How the data were processed

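The authors deposited raw counts of reads for each microRNA gene, not normalized. A gene has 3 counts, without regard to strand, on its own strand and on the other strand, after 4 leading rows of reads in no gene. Per the file descriptions deposited beside them, the assembly is mm10 and the annotation GENCODE M21; aligner and counter: not given in the sources used here. Own-strand counts were taken, with symbols and introns from GENCODE M21 and sequences from RefSeq (GRCm38.p6). CPM is relative to the sum over genes. Reads in no gene row, left out of that sum, made up 63.4% of replicate 1 and 63.6% of replicate 2.

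The members and lists were chosen with earlier results of these data known. Named were the 6 genes, the 2 genes nearest to each in level, the leading 5 of each list and tissue markers. Shares have exact Clopper-Pearson 95% intervals, which cover counting error only; the labels name no molecular identifiers. The binomial test (scipy 1.17.1, threshold 0.05) was tried on simulated counts that varied by read sampling alone. Those counts cannot show how the test behaves under other variation between libraries. With 1 group, edgeR's quasi-likelihood test has no contrast, and the smallest p of an exact sign-flip test over 2 libraries is 0.5, so no test over samples is reported. TMM factors (edgeR 4.0.16) and DESeq2 1.42.0 size factors came from detected genes. Folding energies came from RNAfold 2.7.2.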

Additional observations from a re-analysis of the deposited data

Results flagged for a closer look

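Among all reads, 39.1% in replicate 1 and 41.4% in replicate 2 aligned to more than 1 place in the genome. They are singled out because they lie outside the counts used here; how many of them come from the 6 genes was not analysed here.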

How the results depend on the processing

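With all reads as the total the summed share of the 6 genes was 0.216%, since the total is then larger. The ratio of the 2 classes was 0.843 with Mir320 left out and 1.10 with Mir484 left out, an alternative chosen after seeing the data. The count of the 6 genes that differed between the libraries, 5, was 3 with TMM and 3 with DESeq2 size factors. Of the 22 values of the main results under alternatives that kept both libraries, these 5 moved and 17 stayed within 1 SD or, for counts, 1.5 times. Without either replicate the share ranged from 0.546 to 0.637%, the class ratio from 1.90 to 1.99, and 6 genes were detected each time; with 2 libraries the share and ratio cannot move by more than their SD. Of 36 differences of single genes between the libraries 30 kept their side of the threshold and 6 no longer passed, all of Mir320 or Mir702, and none changed sign. Of 24 levels 15 stayed within 1 SD and 9 moved. The median log2 level of the 23 intron-end genes was 1.68 with a pseudocount of 0.1 and 3.71 with 10, and that of all genes -3.32 and 3.32, so the gap between them depends on the pseudocount. No paired analysis was possible because there was 1 group. The test between the libraries could not be run with a library left out. Depth limits the lower genes of the lists, not the 6 genes, whose lowest count was 1185.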

Other observations

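A list of 10 other microRNA genes made by unusual routes moved in both directions between the libraries. Of the 10 genes 6 were detected and all 6 passed the exact binomial test, 3 higher and 3 lower in replicate 2, where 58.1% of detected genes passed. Mir1839, which is related to a small nucleolar RNA, rose from 2824 counts to 5398 in the smaller library, replicate 2, for a log2 CPM ratio of 1.30. Mir668, proposed as a short hairpin RNA and located in the Mirg transcript, had 4619 and 7007 counts, a ratio of 0.97. Mir451a, which skips Dicer and is an erythroid microRNA, had 152 and 225 counts, a ratio of 0.93. These 3 were the genes that were higher in replicate 2.

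Mir1983, which is related to a transfer RNA, was the most abundant of the list at 3398 ± 150 CPM (SD, n = 2), above Mir320, with a log2 ratio of -0.09. Mir3102 (-0.38) and Mir664 (-0.31), the latter related to a small nucleolar RNA, were also lower in replicate 2. The mirtron Mir1982 in Oaz1 had 15 and 8 counts, and Mir344-2 and Mir344 were at 0 in each, which sets no limit where reads match several positions; these 3 were named after their values were seen.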
